A study of Mus musculus with 11 samples.

Results

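Chemokines are small secreted proteins that steer leukocytes, which follow rising concentrations of a ligand through G protein-coupled receptors on their surface. The CXC ligands with an ELR motif act through Cxcr2 and are best known for drawing neutrophils. Several CC ligands draw monocytes, T cells, dendritic cells or eosinophils, and in skin some are made by keratinocytes in resting epidermis while others appear only on injury or inflammation.

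The chemokine ligands described here were all genes whose single annotated symbol began with Ccl or Cxcl followed by a digit, together with Xcl1 and Cx3cl1. The rule gave 34 of the 20352 genes measured, namely 19 Ccl genes, 13 Cxcl genes, Xcl1 and Cx3cl1. They were followed in 5 keratoacanthomas, well-demarcated squamous skin tumours, and 6 pieces of tumour-free mouse skin, hybridised to 11 whole-transcript arrays. All 5 tumours came from K14-Cre;Zmiz1 double transgenic mice. The normal skins numbered 2 from such double transgenic mice (normal skin 1 and 2), 2 from K14-Cre transgenic mice (3 and 4) and 2 from Zmiz1 transgenic mice (5 and 6), so every animal carried at least 1 of the transgenes and no skin without a transgene was included. In K14-Cre mice the keratin 14 promoter drives Cre recombinase in the basal layer of stratified epithelia, and so in keratinocytes. Age and sex of the mice are not given in the sources used here, and the labels leave unstated if each piece is from its own animal. The p-values therefore measure only the spread between pieces, which may be partly technical.

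The level of a gene was the median of its log2 probeset signals on an array. The members had 184 probesets, between 2 and 12 each with a median of 5, and the median of all probesets on an array lay between 6.22 and 6.27. A value is called dim here where it lay below the 25th percentile of its array's probesets, which was between 4.88 and 4.95. Of the 34 members 7 were dim on some arrays and 0 on every array. As a check of the tissue labels, the mean over 14 keratinocyte markers lay between 9.96 and 10.07 in the tumours and between 9.14 and 9.70 in normal skin, with 6 of the markers higher and 1 lower in the tumours by limma. The mean over 16 skeletal muscle markers lay between 5.67 and 7.10 in the tumours and between 9.96 and 11.13 in normal skin, and 15 of the 16 were lower. Of 12 adipocyte markers 10 were lower. Over all genes 14.5% were called higher and 10.8% lower, the shares to set beside every list count in this report. In tissue pieces of this kind, fewer cells of a type and less RNA per cell cannot be told apart, and the part of the lower muscle and fat signals in the differences below was not tested.

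In keratoacanthoma 9 chemokine ligands were higher and 4 were lower than in normal skin (limma, Benjamini-Hochberg adjusted over all 20352 genes, adjusted p below 0.05). The higher ones were Ccl20, Cxcl3, Cxcl5, Cxcl2, Cxcl10, Ccl2, Ccl3, Ccl4 and Cxcl16, and the lower ones Xcl1, Ccl27a, Ccl24 and Cxcl13. The 9 made up 26.5% of the members, against 14.5% of all genes called higher. The 4 made up 11.8%, against 10.8% of all genes called lower. The median log2 difference, keratoacanthoma minus normal skin, was 0.10 over the 34 members and -0.04 over all genes. All 5 tumours lay above all 6 normal skins for 7 members (20.6%, against 9.66% of all genes) and below them for 2 members (5.88%, against 6.31% of all genes). The other 25 members had overlapping groups. For a single gene, an exact two-sided permutation test of 5 arrays against 6 cannot go below p = 0.0043, and those 9 members reached that value.

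**Figure D1:**
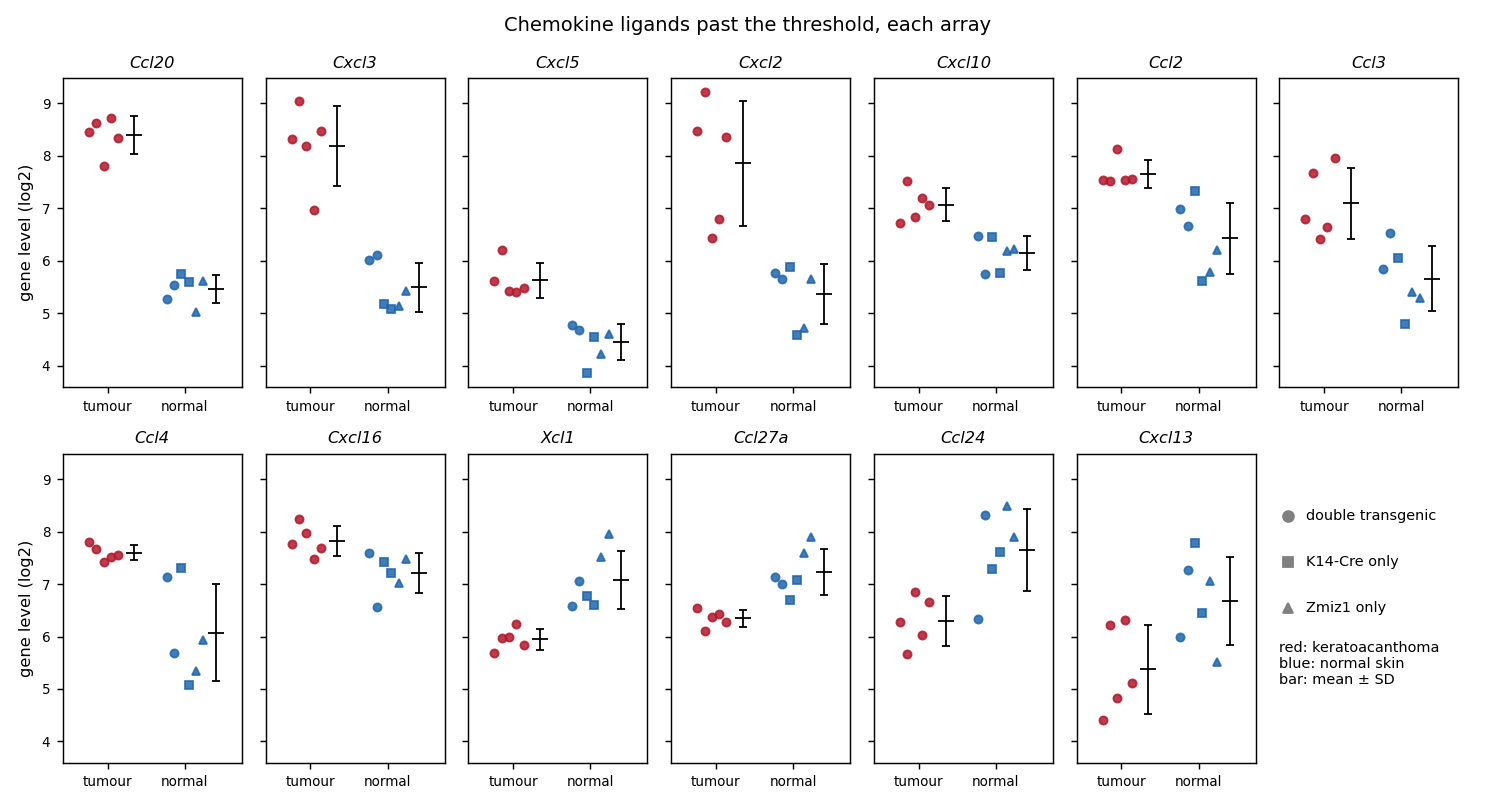
Gene level on each array (vertical axis, log2 signal) of the 13 chemokine ligands past the threshold, keratoacanthoma left of normal skin in each panel, with point shapes for genotype and a bar at mean ± SD. The 5 tumour points of Ccl20, between 7.80 and 8.73, lie above all 6 normal skin points, between 5.03 and 5.75, whereas the groups of Ccl24 and Cxcl13 overlap.

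Among the ELR CXC ligands of Cxcr2, 3 of 5 members were higher in the tumours (Cxcl2, Cxcl3 and Cxcl5) and 0 were lower. Cxcl3, a neutrophil attractant, had log2 signals of 8.32, 9.04, 8.18, 6.96 and 8.47 in keratoacanthomas 1 to 5, and in normal skin a lowest signal of 5.08, a median of 5.30 and a highest of 6.11. Tumour 4 was clearly the lowest of the tumours and still lay above every normal skin, the highest of which were the double transgenic skins. The difference was 2.70 on the log2 scale (SE 0.32, limma adjusted p = 6.9e-05), or 6.50-fold. Cxcl2, a close relative first described as a macrophage product, had signals of 8.48, 9.21, 6.44, 6.79 and 8.37 in the 5 tumours, and 4.58, 5.65 and 5.88 as lowest, median and highest in normal skin. Tumours 1, 2 and 5 stood well above tumours 3 and 4, which were the nearest to normal skin, and the groups did not overlap. Its log2 difference was 2.48 (SE 0.46, limma adjusted p = 0.0015), with a dim signal on 2 of the normal skins.

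Cxcl5, a ligand that epithelial cells make, had signals of 5.62, 6.21, 5.42, 5.40 and 5.49 in the tumours, against 3.86, 4.58 and 4.77 as lowest, median and highest in normal skin. Tumour 2 was highest and the other tumours lay close together, while all 6 normal skins were dim. Cxcl5 was higher by 1.18 on the log2 scale (SE 0.19, limma adjusted p = 0.00056). Cxcl1, which is also a strong neutrophil attractant, had between 5.85 and 6.13 in the tumours and between 5.21 and 6.22 in normal skin. Its difference was 0.09 with a 95% interval of -0.26 to 0.44 (limma adjusted p = 0.74), and the tumours lay within the range of normal skin. Cxcl15, known mainly from mouse lung, was dim on 5 tumours and 5 normal skins and differed by -0.40 (limma adjusted p = 0.29).

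The promoters of Cxcl1, Cxcl2 and Cxcl3 are shown because these neighbouring genes share a sequence of the form bound by NF-kB, while Cxcl2 and Cxcl3 were called and Cxcl1 was not. Each is the 250 bases before the annotated start from RefSeq (build GRCm38.p6), read 5′ to 3′ on the plus strand of chromosome 5, at chr5:90890995-90891244 for Cxcl1, chr5:90903649-90903898 for Cxcl2 and chr5:90785851-90786100 for Cxcl3. Capitals mark GGGANNTTC on either strand, and here the match on one strand overlaps that on the other in all but 2 bases.
Cxcl1: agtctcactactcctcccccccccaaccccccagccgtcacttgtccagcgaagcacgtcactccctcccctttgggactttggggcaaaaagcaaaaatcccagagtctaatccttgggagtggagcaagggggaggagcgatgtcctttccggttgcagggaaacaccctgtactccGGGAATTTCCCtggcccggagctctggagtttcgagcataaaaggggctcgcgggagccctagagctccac
Cxcl2: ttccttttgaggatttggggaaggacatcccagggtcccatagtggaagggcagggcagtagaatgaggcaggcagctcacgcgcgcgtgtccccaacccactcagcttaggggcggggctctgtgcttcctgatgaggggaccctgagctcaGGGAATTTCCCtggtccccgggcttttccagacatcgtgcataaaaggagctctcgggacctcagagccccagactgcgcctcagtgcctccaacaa
Cxcl3: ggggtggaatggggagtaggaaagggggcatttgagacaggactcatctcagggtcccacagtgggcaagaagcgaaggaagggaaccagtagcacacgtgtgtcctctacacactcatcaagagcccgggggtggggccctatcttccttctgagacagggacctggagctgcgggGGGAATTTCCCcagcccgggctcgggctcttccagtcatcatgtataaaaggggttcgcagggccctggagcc

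All 3 windows held GGGAATTTC, beginning 71 bases before the start in Cxcl1, 97 in Cxcl2 and 73 in Cxcl3. Among 32851 RefSeq windows of 300 bases (250 before and 50 from the start on), searched on both strands, 0.259% held GGGAATTTC. Of the 23 members with a window, 4 held it, the fourth being Cxcl9. The looser GGGANNTTC was in 3.94% of windows and, among the members, also in those of Ccl1 and Cxcl10. Cxcl1 and Cxcl9 thus carried the same letters as Cxcl2 and Cxcl3 without a call in the tumours. A match describes the letters only.

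The probesets of these ligands did not move alike. All 4 probesets of Cxcl2 were higher, by 1.47 to 3.51 on the log2 scale. For Cxcl3, 4 of 6 were higher and the 6 ranged from -0.18 to 4.28. For Cxcl5, 3 of 7 were higher, up to 3.90, so the median over its probesets gave a smaller difference than the probesets that moved. The 3 probesets of Cxcl1 differed by -0.15, 0.22 and 0.24 and none passed the threshold. Whether a probeset of one of these related genes also took up RNA of another was not tested. Nor was it tested whether the 3 probesets of Cxcl1 follow its RNA, so the missing call does not show that Cxcl1 was unchanged.

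**Figure D2:**
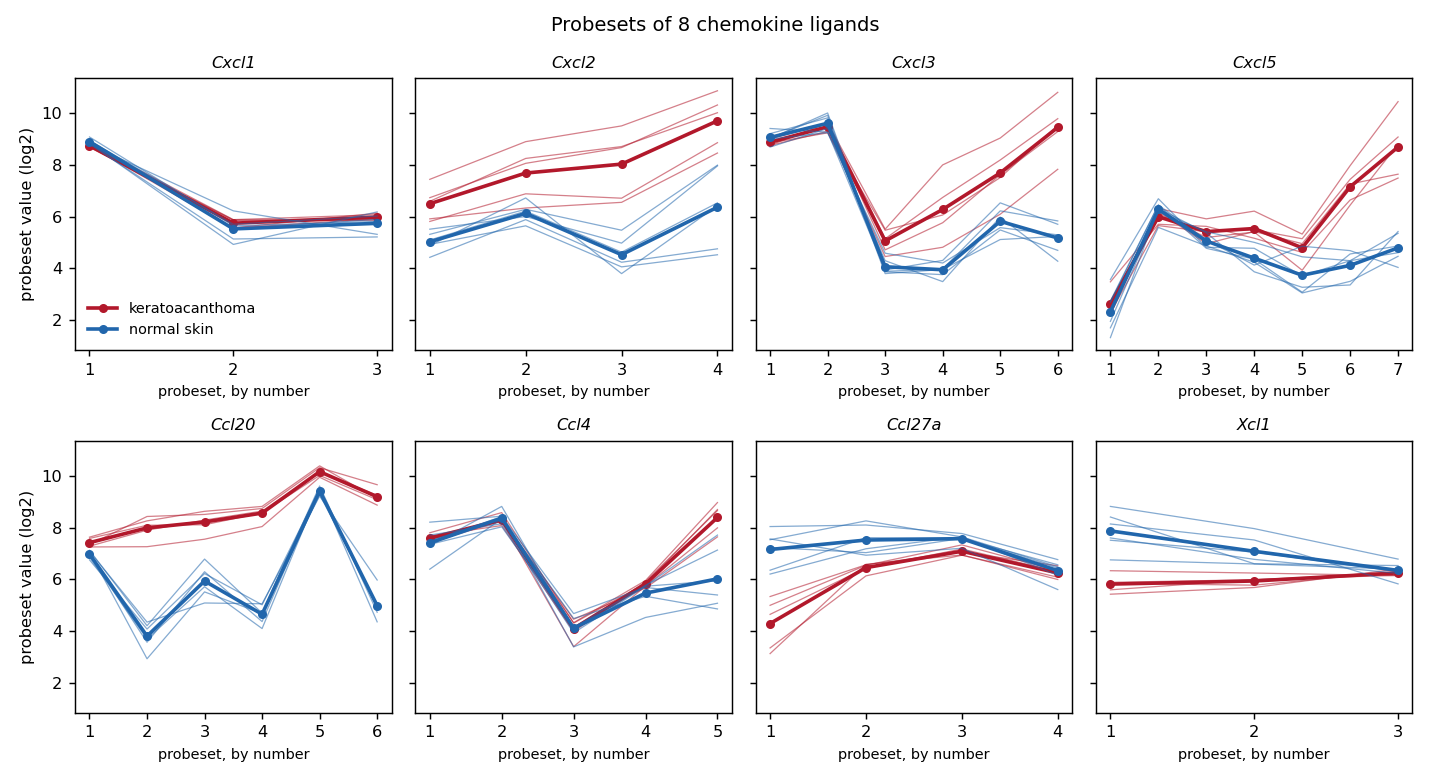
Log2 value of each probeset (vertical axis) in order of probeset number (horizontal axis) for 8 of the ligands, with a thin line for each array and a thick line with points for the group mean, keratoacanthoma in red and normal skin in blue. The group means of Cxcl1 run together, with differences between -0.15 and 0.24, while those of Cxcl3 part at its later probesets, by up to 4.28.

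Ccl20 draws Ccr6-bearing dendritic, T and B cells and is a keratinocyte product in inflamed skin. Its signals were 8.46, 8.63, 7.80, 8.73 and 8.34 in the 5 tumours, and 5.03, 5.56 and 5.75 as lowest, median and highest in normal skin. The lowest tumour was tumour 3, and a gap of more than the whole spread of either group separated it from the highest normal skin. Ccl20 was higher by 2.93 on the log2 scale (SE 0.17, limma adjusted p = 3.2e-07), and 5 of its 6 probesets were higher, with the 6 between 0.44 and 4.22. Its receptor Ccr6 averaged 5.24 ± 0.25 in the tumours and 5.17 ± 0.36 in normal skin (SD, n = 5 and 6), with a difference of 0.07 (limma adjusted p = 0.82).

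Of the 3 interferon-induced CXC ligands of Cxcr3, the receptor on activated T and NK cells, 1 was higher and 0 were lower. Cxcl10 had signals of 6.72, 7.53, 6.84, 7.20 and 7.06 in the tumours, against 5.75, 6.21 and 6.48 as lowest, median and highest in normal skin. Tumour 1 was lowest, and the groups did not overlap. Cxcl10 was higher by 0.92 on the log2 scale (SE 0.18, limma adjusted p = 0.0021), and 3 of its 4 probesets were higher. Cxcl9 differed by 0.08 (limma adjusted p = 0.79) and Cxcl11 by -0.29 (limma adjusted p = 0.078).

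The promoter of Cxcl10 is shown because it holds an interferon-type repeat, GAAANNGAA, beside the letters marked above. It lies at chr5:92348890-92349139 on the minus strand and is given in the gene's direction (RefSeq, GRCm38.p6), with GAAANNGAA and GGGANNTTC in capitals, which do not overlap.
Cxcl10: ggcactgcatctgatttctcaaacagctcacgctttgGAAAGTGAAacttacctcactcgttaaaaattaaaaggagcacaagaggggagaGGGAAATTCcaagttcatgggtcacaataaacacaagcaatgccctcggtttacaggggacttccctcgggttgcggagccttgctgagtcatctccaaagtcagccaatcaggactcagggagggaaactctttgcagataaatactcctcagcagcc
The repeat begins 213 bases before the start and GGGANNTTC 159 bases before it. GAAANNGAA was in 8.56% of all windows and in those of 5 members, namely Cxcl10, Ccl3, Ccl1, Cxcl9 and Cxcl14, of which the first 2 were called higher.

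Among the 4 CC ligands of Ccr2, which draw monocytes, 1 was higher and 0 were lower. Ccl2, the best known monocyte attractant, had signals of 7.54, 7.52, 8.14, 7.54 and 7.56 in the tumours, and 5.61, 6.43 and 7.33 as lowest, median and highest in normal skin. Tumour 3 stood above the other tumours, which were nearly equal, and the groups did not overlap. Ccl2 was higher by 1.23 on the log2 scale (SE 0.28, limma adjusted p = 0.0059). Ccl7, Ccl8 and Ccl12, which lie near Ccl2 on chromosome 11, differed by 0.15, 0.57 and 0.31 with overlapping groups and no call.

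Among the 5 other inflammatory CC ligands, 2 were higher and 0 were lower. Ccl3, made by activated macrophages and other leukocytes, had signals of 6.79, 7.67, 6.42, 6.64 and 7.96 in the tumours, and 4.80, 5.62 and 6.54 as lowest, median and highest in normal skin. Tumour 3 lay below the highest normal skin, which was double transgenic, so the groups overlapped. Ccl3 was higher by 1.44 on the log2 scale (SE 0.33, limma adjusted p = 0.0066). Ccl4, a close relative of Ccl3, had signals of 7.80, 7.67, 7.43, 7.52 and 7.55 in the tumours, and 5.07, 5.81 and 7.30 as lowest, median and highest in normal skin. The tumours lay close together, while normal skins 1 and 3 lay just below them and the other normal skins far below. Each tumour value was, however, the signal of a probeset that differed by only 0.19 (limma adjusted p = 0.69). The median fell on that probeset in normal skin 3 alone and on others in the remaining normal skins. The closeness of the tumours and their separation from normal skin thus rest on the median. The difference was 1.52 (SE 0.36, limma adjusted p = 0.0075), but 1 of the 5 probesets of Ccl4 was higher, by 2.37, and the others lay between -0.07 and 0.35. The higher probeset ranged from 7.64 to 8.97 in the tumours, and its groups overlapped, with normal skin 3 at 7.71. Ccl5, which T cells and NK cells make, differed by -0.07 with a 95% interval of -0.55 to 0.42, and Ccl6 and Ccl9 by -0.46 and -0.20, without a call.

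Normal skins 1 and 3 stood apart in another measure. The mean over 16 hair follicle markers was 9.16 and 8.85 in them, between 5.99 and 6.16 in the other normal skins, 8.11 in tumour 4 and between 5.93 and 6.23 in the other tumours, and 0 of these markers were higher and 1 lower in the tumours. These 2 skins also had the highest Ccl2 and Ccl4 signals of the normal skins. Without them, a comparison added after the data had been seen, the log2 difference was 2.09 for Ccl4, 1.60 for Ccl2, 1.08 for Cxcl10 and -1.79 for Ccl24. Cxcl13 lost its call there, at -1.20 (limma adjusted p = 0.072), and Ccl11 gained one, at -0.76 (limma adjusted p = 0.044).

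Xcl1, which acts on Xcr1 of cross-presenting dendritic cells, was lower in the tumours. Its signals were 5.68, 5.98, 5.99, 6.24 and 5.84 in keratoacanthomas 1 to 5, and 6.59, 6.91 and 7.96 as lowest, median and highest in normal skin. The groups did not overlap, and the Zmiz1 transgenic skins were the highest. Xcl1 fell by 1.14 on the log2 scale (SE 0.23, limma adjusted p = 0.0029), with 2 of its 3 probesets lower. Xcr1 was dim on all 11 arrays and differed by -0.16 (limma adjusted p = 0.51). Cx3cl1, a membrane-bound ligand of Cx3cr1, differed by -0.04 (limma adjusted p = 0.85).

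Of the 5 CC ligands of Ccr4, Ccr8 and Ccr10, 0 were higher and 1 was lower. Ccl27a is made by keratinocytes of resting epidermis and draws Ccr10-bearing T cells to skin. It had signals of 6.54, 6.11, 6.37, 6.43 and 6.28 in the tumours, and 6.69, 7.10 and 7.90 as lowest, median and highest in normal skin. The tumours varied little, and each lay below every normal skin. Ccl27a fell by 0.88 on the log2 scale (SE 0.19, limma adjusted p = 0.0041), and 3 of its 4 probesets were lower, the lowest by -2.86. Ccr10 was lower too, at -0.37 (limma adjusted p = 0.047), with overlapping groups, but did not pass without tumour 1, 3 or 5 or any normal skin but the fourth (limma adjusted p up to 0.13). Ccl1, Ccl17 and Ccl22 differed by 0.41, 0.25 and 0.16. Of the 5 probesets of Ccl1, 1 was higher, with the 5 between -0.53 and 0.79. Ccl28, also a ligand of Ccr10, differed by -0.14 with a dim signal on 5 tumours and 4 normal skins.

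Of the 3 CC ligands of Ccr3, which draw eosinophils, 0 were higher and 1 was lower. Ccl24 had signals of 6.28, 5.66, 6.85, 6.02 and 6.66 in the tumours, and 6.33, 7.76 and 8.48 as lowest, median and highest in normal skin. The lowest normal skin was normal skin 1, and 2 tumours lay above it. Ccl24 fell by 1.36 on the log2 scale (SE 0.34, limma adjusted p = 0.011), with 3 of its 7 probesets lower. Ccl11 differed by -0.51 (limma adjusted p = 0.17) and Ccl26 by 0.11 (limma adjusted p = 0.53). Ccr3 itself was higher in the tumours, with signals of 6.11, 6.36, 6.13, 5.74 and 7.72, against 5.09, 5.19 and 5.62 as lowest, median and highest in normal skin. Its log2 difference was 1.15 (limma adjusted p = 0.0083), and tumour 5 was far above the rest.

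Of the 5 other CXC ligands, 1 was higher and 1 was lower. Cxcl13, which organises B cell follicles, had signals of 4.40, 6.22, 4.82, 6.31 and 5.11 in the tumours, and 5.52, 6.76 and 7.78 as lowest, median and highest in normal skin. Tumours 2 and 4 fell among the normal skins, and 2 of the tumours were dim. Of the 5 probesets of Cxcl13, 1 was lower. Cxcl13 fell by 1.31 on the log2 scale (SE 0.43, limma adjusted p = 0.041), a call that was lost in 12 of 22 alternative settings. Leaving out tumour 1, 3 or 5 or normal skin 2, 3, 4 or 5 was each enough, with differences of -1.07 to -1.54 over all single arrays left out (limma adjusted p up to 0.10). Cxcl16, a membrane-bound ligand of Cxcr6 that Adam10 sheds, had signals of 7.76, 8.24, 7.97, 7.48 and 7.68 in the tumours, and 6.56, 7.33 and 7.59 as lowest, median and highest in normal skin. The groups overlapped, with tumour 4 below the highest normal skin. Of the 10 probesets of Cxcl16, 2 were higher. Its difference was 0.61 (SE 0.19, limma adjusted p = 0.031), a call lost in 8 of the 22 settings. Without tumour 1, 2 or 3 or normal skin 4 or 5 it did not pass, and over all single arrays left out the difference was 0.47 to 0.69 (limma adjusted p up to 0.085). Cxcl12, Cxcl14 and Cxcl17 differed by -0.07, -0.26 and -0.22 without a call. For Cxcl12, a stromal ligand of Cxcr4, 2 of the 7 probesets were lower, and with the mean over probesets in place of the median it passed, at -0.54 (limma adjusted p = 0.0091). Ccl25, the only measured member among the ligands of Ccr7 and Ccr9, differed by 0.22 (limma adjusted p = 0.25).

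Taking the 21 members without a call as a group, their log2 differences lay between -0.51 and 0.57 and the smallest limma adjusted p was 0.063, that of Ccl1. Over probesets, 31 of the 184 were higher (16.85%, against 8.29% of all 211507 probesets) and 11 were lower (5.98%, against 6.98%). Without tumour 2 or 5, or normal skin 2 or 5, 7 were lower, while 4.70% to 6.41% of all probesets were. At least 1 probeset was higher for 11 members and at least 1 lower for 5, with 0 members showing both and 18 showing neither. By chromosome, 11 members lay on chromosome 5, with 4 higher and 2 lower, and 12 on chromosome 11, with 4 higher and 0 lower. Over all chromosomes 14.5% of genes were called higher and 10.8% lower, and shares by chromosome were not computed. On chromosome 5 the order of the neutrophil attractants was Cxcl5, Cxcl3, Cxcl15, Cxcl1 and Cxcl2, so the uncalled Cxcl15 and Cxcl1 lay between called genes.

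**Figure D3:**
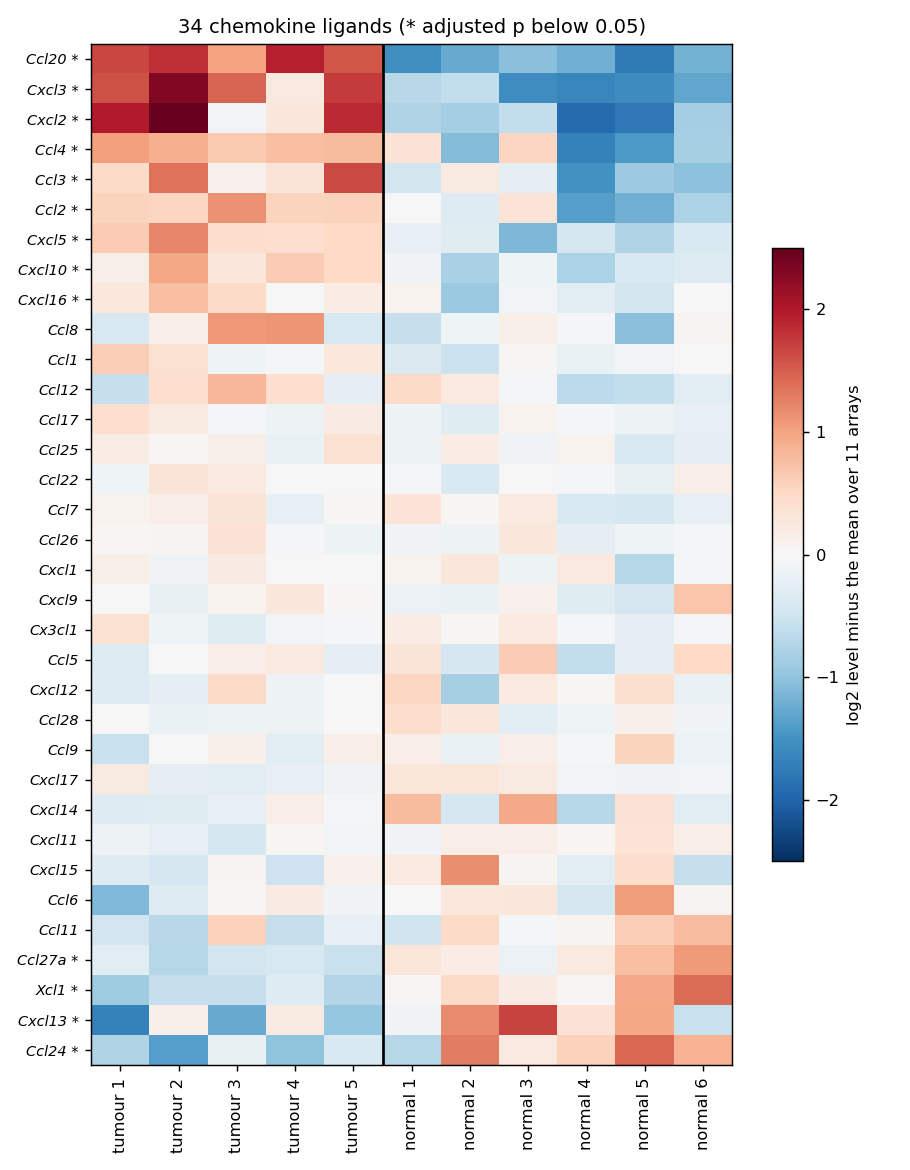
Log2 level of all 34 members on each array, the 5 keratoacanthomas (tumour 1 to 5) left of the 6 normal skins, shown in colour as the deviation from the member's mean over the 11 arrays and ordered by the difference between the groups. Ccl20 and Cxcl3 are above their mean in every tumour, and Xcl1 and Ccl27a are below theirs.

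Tumour and normal skin of the same genotype were compared in a model of 4 groups, which shares the tumour arrays and 2 of the normal skins with the comparison above. Against double transgenic normal skin, 6 members were higher (10.6% of all genes were called higher) and 3 were lower (6.93% of all genes). The higher ones were Ccl20 at 2.99 (limma adjusted p = 9.1e-05), Cxcl3 at 2.13 (0.0064), Cxcl2 at 2.15 (0.049), Cxcl10 at 0.95 (0.032), Cxcl5 at 0.90 (0.029) and Ccl1 at 0.68 (0.032). The lower ones were Xcl1 at -0.87 (limma adjusted p = 0.011), Ccl27a at -0.72 (0.013) and Ccl28 at -0.44 (0.037). Ccl2, Ccl3 and Ccl4 differed by 0.84, 0.90 and 1.19 there without a call, as did Ccl24 by -1.04, Cxcl13 by -1.26 and Cxcl16 by 0.75. Only 2 normal skins stood on one side, and without normal skin 2 the counts were 1 higher, which was Ccl20, and 0 lower, with 2.47% and 1.59% of all genes called higher and lower. Without keratoacanthoma 2 or keratoacanthoma 5 they were 3 higher and 2 lower, with 8.18% and 4.87% of all genes without the first of these tumours and 8.29% and 4.83% without the other. Over 18 alternative settings Ccl20 always kept its call, Cxcl3 lost it in 1, Xcl1 and Ccl27a in 2 each, Cxcl5 in 3, Cxcl10 in 5 and Ccl1 in 6. The Cxcl2 call was lost in 12 settings, among them the removal of tumour 1, 2 or 5 or of any 1 normal skin (limma adjusted p up to 0.24 with an array left out). The Ccl28 call was lost in 10 and not tested in 1, and did not pass without tumour 2, 3, 4 or 5 or normal skin 1 or 2 (limma adjusted p up to 0.12). Besides normal skin 2, Ccl1 depended on tumours 2 and 5 and normal skin 1 (limma adjusted p up to 0.23), Cxcl10 on tumours 2, 4 and 5 (up to 0.33) and Cxcl5 on normal skin 1 (up to 0.18).

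Tumour-free skin with both transgenes was compared with skin carrying 1 of them, to ask whether the ligands already differed without a tumour. By limma 0 members were higher and 0 lower, with 0.00983% and 0.00491% of all genes called higher and lower. At an unadjusted p below 0.05, 2 members were higher, Ccl28 by 0.44 and Cxcl15 by 0.79, and 0 lower, against 5.07% of all genes higher and 5.11% lower at that threshold. The smallest limma adjusted p of a member was 0.36, for Ccl28. The estimates of Cxcl3, Cxcl2 and Ccl3 were 0.86, 0.50 and 0.81, with adjusted p of 0.51, 0.84 and 0.57 in limma. With 2 skins against 4, intervals were wide, and these values do not show that the skins were alike.

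**Figure D4:**
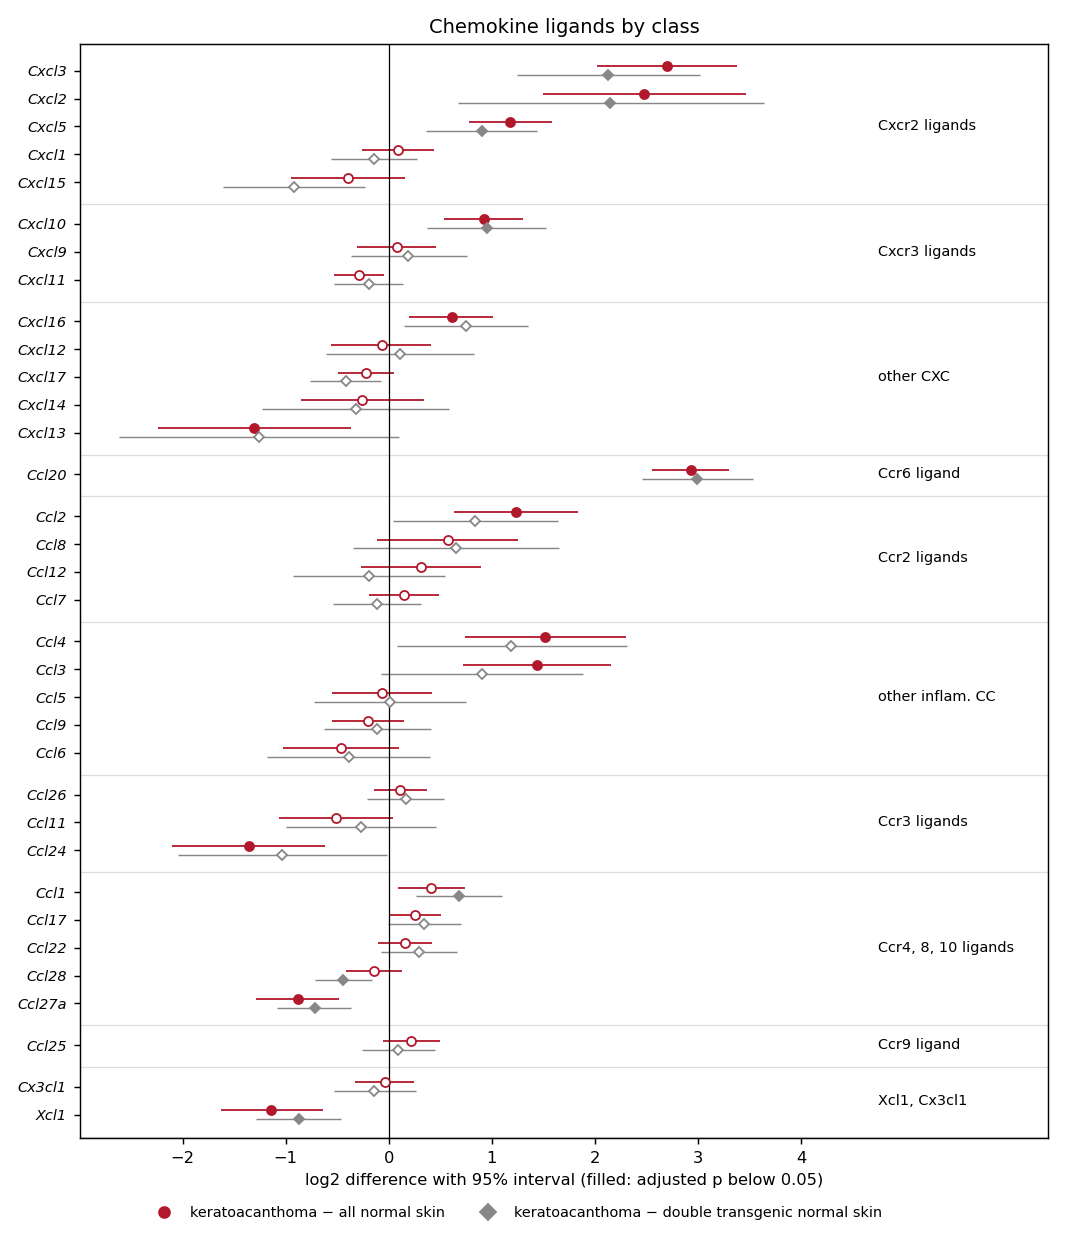
Log2 differences with 95% intervals (horizontal axis) of all 34 ligands by ligand class, for keratoacanthoma minus all normal skin (circles) and keratoacanthoma minus double transgenic normal skin (diamonds), filled where the limma adjusted p is below 0.05. The estimates of Ccl20 are 2.93 and 2.99, and 29 of the 34 ligands have the same sign in both.

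Of 22 chemokine receptors measured, 2 were higher in the tumours and 3 were lower. These counts lay near the shares over all genes, 14.5% higher and 10.8% lower. Cxcr2, the receptor of the neutrophil attractants, had signals of 7.86, 8.67, 7.77, 7.59 and 8.58 in the tumours, and 3.99, 4.15 and 5.63 as lowest, median and highest in normal skin. The groups were far apart, and 5 of the 6 normal skins were dim. Its difference was 3.69 on the log2 scale (limma adjusted p = 3.1e-06). Cxcr4, the receptor of Cxcl12, fell by 0.50 (limma adjusted p = 0.048) but was at 0.11 with the mean over probesets and passed only without tumour 5 or normal skin 3 among the single arrays left out, and Ackr3, a scavenger of Cxcl12, by 0.36 (limma adjusted p = 0.011). Ccr2, the receptor of Ccl2, differed by -0.29 (limma adjusted p = 0.42), and Cxcr3 by 0.02 (limma adjusted p = 0.88). Ccr1, a receptor of Ccl3, had 4.87 ± 0.65 in the tumours and 3.88 ± 0.68 in normal skin (SD, n = 5 and 6), without a call (limma adjusted p = 0.050).

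**Figure D5:**
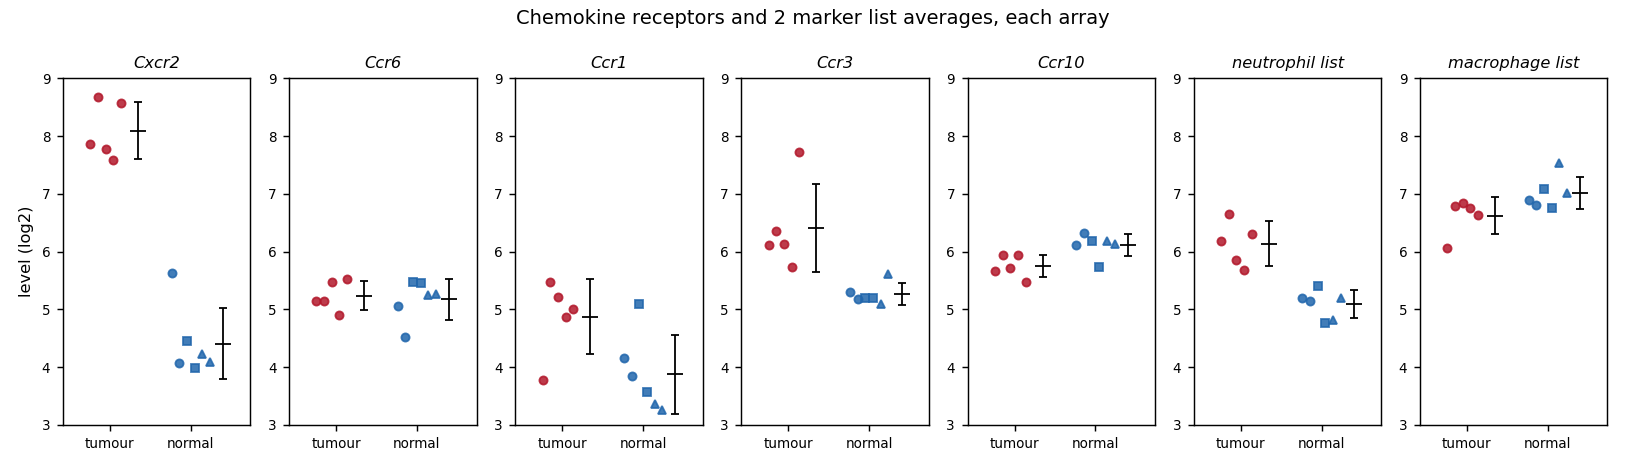
Level on each array (vertical axis, log2 signal) of 5 chemokine receptors and the mean over the neutrophil and macrophage markers, keratoacanthoma left of normal skin, with point shapes for genotype and a bar at mean ± SD. Cxcr2 lies between 7.59 and 8.67 in the tumours and between 3.99 and 5.63 in normal skin, while the groups overlap for Ccr6.

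Genes of the signals known to switch these ligands on were counted from lists chosen with the earlier results known. Beside each count, here and for the proteases and heparan sulfate below, stand 14.5% of all genes called higher and 10.8% lower. The heparan sulfate counts, and the higher interferon inputs, lay near these shares. The IL-1, IL-36, TNF, IL-17 and NF-kB pathways induce Cxcl2, Cxcl3 and Ccl20 in keratinocytes. Of 31 genes of these pathways, their inhibitors such as Il1rn and Nfkbia included, 14 were higher and 0 lower. Among the higher were the IL-36 genes Il1f8 at 2.27 (limma adjusted p = 2.2e-05) and Il1f6 at 2.51 (0.001). Myd88 at 1.27 (limma adjusted p = 5.6e-05) and Nfkb1 at 0.70 (0.00039) were higher too. The IL-17 genes Il17a, Il17f, Il17c, Il17ra, Il17rc, Il17re and Traf3ip2 differed by -0.26 to 0.49 without a call. Tnf at 0.34 (limma adjusted p = 0.078), Nfkbia at 0.16 and Tnfaip3 at 0.11 had no call either. The TNF receptor gene Tnfrsf1a was higher by 0.51 (limma adjusted p = 0.0056). Of 12 interferon inputs 2 were higher and 0 lower, Stat2 at 0.80 (limma adjusted p = 0.00078) and Irf7 at 0.93 (0.00079). The list of type 2 immunity holds inducers of Ccl24 and Ccl11 and also the macrophage products Retnla, Chil3 and Arg1. Of its 14 genes 5 were higher, among them Tslp at 3.26 (limma adjusted p = 3.5e-07), Il13ra1 at 0.89 (0.00014) and Il13ra2 at 2.09 (0.00042). The cytokine genes Il4, Il5 and Il13 differed by 0.12, 0.36 and -0.07 without a call. Il4 was dim on 10 arrays and Il5 on all 11. The 2 lower type 2 genes were Retnla at -4.50 (limma adjusted p = 0.00099) and Il25 at -0.67 (0.0065).

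Of 14 proteases that cut or shed chemokines, 6 were higher and 0 lower, among them Mmp13 at 3.14 (limma adjusted p = 3.7e-06), Mmp10 at 2.30 (4.3e-05), Mmp9 at 1.63 (0.00055) and Adam10, which sheds Cxcl16, at 1.15 (0.00026). Of 19 genes of heparan sulfate, the sugar chain on which chemokines are held, 2 were higher and 3 lower. Ext1, which builds the chain, was higher by 2.00 (limma adjusted p = 8.4e-06) and Gpc3, a carrier of it, fell by 0.96 (limma adjusted p = 0.0069).

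Markers of the cells that the ligands attract did not all move with them. Each marker count, here and below, stands beside 14.5% of all genes called higher and 10.8% lower. The T cell counts lay near these shares. Of 16 neutrophil markers 6 were higher and 0 lower, and their mean was 6.19, 6.66, 5.85, 5.69 and 6.31 in keratoacanthomas 1 to 5, against 4.77, 5.17 and 5.40 as lowest, median and highest in normal skin. S100a8 and S100a9, which keratinocytes also make, led with 4.26 (limma adjusted p = 2e-05) and 3.57 (1.3e-05), followed by Clec4d at 1.79 (0.0021). The mean includes S100a8 and S100a9 and was not computed without them, so its separation of the groups may rest on them. Mpo, Ltf, Camp, Ngp and Itgam differed by 0.03 to 0.27 without a call. Ly6g, a defining neutrophil marker, differed by 0.30 (limma adjusted p = 0.28) and was dim on 10 arrays. The tumours ran 2, 5, 1, 3 and 4 from highest to lowest for the neutrophil marker mean, for Cxcl3 and for Cxcr2, an order seen in 5 pieces and described without a test. Cxcl2 ran 2, 1, 5, 4 and 3 and Cxcl5 ran 2, 1, 5, 3 and 4, so tumour 2 was highest for all 3 ligands and the order below it differed between them. The part of these markers in the Cxcl2, Cxcl3 and Cxcl5 differences was not tested.

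Of 15 monocyte and macrophage markers 1 was higher and 4 were lower, beside the higher Ccl2. Csf1r fell by 0.74 (limma adjusted p = 0.019) and Msr1 was higher by 0.92 (limma adjusted p = 0.0076). Of 13 T cell markers 2 were higher and 1 lower, with Il2ra at 1.81 (limma adjusted p = 7.2e-05), Icos at 1.10 (0.0001) and Cd3g at -1.02 (0.016). Of 16 dendritic and Langerhans cell markers 0 were higher and 4 lower, including Cd207 at -0.71 (limma adjusted p = 0.0039), beside the higher Ccl20 and the lower Xcl1. Of 5 eosinophil markers 1 was higher, which was Ccr3, and 1 was lower, Prg2 at -0.54 (limma adjusted p = 0.0036). Of 8 markers of NK cells, which make Xcl1, 0 were higher and 1 was lower, Prf1 at -0.41 (limma adjusted p = 0.047), which did not pass without any 1 of the tumours or without normal skin 1, 5 or 6 (limma adjusted p up to 0.096).

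Mast cell markers gave 1 higher and 1 lower of 9, platelet markers 1 higher and 1 lower of 8, and B cell markers 0 and 0 of 8. The platelet markers called were Ppbp, higher, and Pf4, lower, chemokines whose symbols fall outside the rule for members. With single arrays left out, Ppbp differed by 0.86 to 1.43 (limma adjusted p up to 0.081) and Pf4 by -0.99 to -0.71 (up to 0.06). Of 12 fibroblast markers 0 were higher and 5 lower, among them Dcn at -1.87 (limma adjusted p = 0.0021). Endothelial markers gave 2 higher and 3 lower of 12, and lymphatic endothelial markers 0 and 0 of 6. What part the changing cell content had in any ligand's difference was not tested.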

How the data were processed

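The deposited table held log2 signals of 241576 probesets on 11 arrays, for which the submitters' processing notes name RMA, Partek and the build mm9; versions and settings are not given in the sources used here. Of the probesets, 212097 named 1 gene, 4475 several and 25004 (10.35%) none; those naming 1 gene were used, less 590 with values identical to another of the gene, which left 211507. The gene value was the median over probesets. Keratoacanthoma and normal skin were fitted with limma 3.58.1 in R 4.3.3 (lmFit, eBayes, Benjamini-Hochberg over all genes), with a 4-group model for genotypes and a fit over probesets. Python 3.11.15 made the tables (pandas 2.3.3, with numpy 2.4.6) and drew the figures through matplotlib 3.10.9. The fits were also run on simulated data with independent random noise and no difference between the normal skin genotypes, a simpler setting than these arrays.

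Array number and signal over background limit the precision, and no batch was named in the labels. Same-numbered arrays did not deviate together (correlations of -0.08, -0.03, -0.14, -0.18 and 0.10 for numbers 1 to 5), so the title numbers were not taken as pairs. Values in every tumour were given for the members past the threshold with the 12 smallest p-values and for every lower one. For normal skin their lowest, median and highest values were given. From each list up to 4 genes past the threshold with the smallest p-values, and up to 2 in the opposite direction, could be named. Ccr6, Ccr2, Cxcr3, Xcr1, Ccr1, Ly6g, Mpo, Ltf, Camp, Ngp, Itgam, Il4, Il5 and Il13 were chosen after their values were seen. Members and lists were chosen with earlier results of these data known. The settings varied were the summary of probesets (mean), the removal of dim probesets or dim genes, quantile normalization, centring, trend and robust eBayes, array weights, the replicate block, either kind of normal skin alone, and each array left out; a comparison without normal skins 1 and 3 was added after seeing the data. Promoter motifs, and the members whose promoters are shown, were chosen with the values known.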

Additional observations from a re-analysis of the deposited data

Results flagged for a closer look

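Within each group, every member was checked for a single array far from the others, by the gap to its nearest neighbour as a share of the group's range. Of 68 pairs of gene and group, 3 had such an array, and chance gives about 1 in 20. Ccl2 was 8.14 in keratoacanthoma 3, against 7.52 to 7.56 in the other tumours. That gap is between medians, and a called probeset of Ccl2 had 7.09 in keratoacanthoma 3 and 7.08 in keratoacanthoma 5. Cxcl5 was 6.21 in keratoacanthoma 2, against 5.40 to 5.62 in the others, on a gene that is dim in normal skin. Ccl26, an uncalled ligand of Ccr3, was 5.05 in normal skin 3, and its normal skins ranged down to 4.55.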

How the results depend on the processing

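Over 22 alternatives, 8 of the 13 calls were never lost and 0 of the 13 changed direction. Cxcl5 was not tested in the alternative that dropped genes with a low mean over the arrays. Cxcl13 lost its call in 12 alternatives and Cxcl16 in 8, and Ccl24, Ccl3 and Cxcl2 in 1 each, against double transgenic normal skin alone (-1.04, 0.90 and 2.15). With the replicate block, Cxcl16 lost its call (0.66, limma adjusted p = 0.062), Ccl8 gained one (0.63, 0.030) and the lower probesets numbered 6; number 5 was the only one whose 2 arrays correlated best with each other. Of the uncalled members, 7 passed under some alternative: besides Ccl8, Cxcl12 with the mean over probesets (-0.54), Ccl17 without dim probesets (0.46), Ccl1 with quantile normalization, centring or without tumour 3 (0.48, 0.47 and 0.50), Ccl11 without tumour 3 (-0.73) or normal skins 1 and 3 (-0.76), Cxcl11 without normal skin 1 (-0.33) and Ccl28 against double transgenic skin alone (-0.44). Leaving out each array gave 8 to 9 members higher and 3 to 5 lower, 44 to 53 list genes higher and 47 to 54 lower, and 23 to 32 probesets higher and 7 to 11 lower. In the same-genotype comparison it gave 1 to 7 higher and 0 to 4 lower, and in the comparison of tumour-free skins 0 and 0. Array weights left 2 higher and 0 lower in the same-genotype comparison. Against double transgenic normal skin alone, 31 list genes were lower, 12 probesets higher and 1 lower, with fewer arrays in the fit. Some uncalled values changed sign, the cause of which was not tested: against double transgenic skin alone Ccl12 (-0.19), Ccl7 (-0.11), Cxcl1 (-0.14), Cxcl12 (0.11) and Ccl5 (0.0095); against single transgenic skin alone Ccl28 (0.0037) and Cx3cl1 (0.003); with the mean over probesets Ccl22 (-0.13), Cxcl15 (0.027) and the called Cxcr4 (0.11); without dim probesets Cxcl15 (0.10); with the block Ccl5 (0.024); with quantile normalization and centring Cx3cl1 (0.0021 and 0.017). Without normal skins 1 and 3, chosen after seeing the data, Ccl5 (0.16), Cx3cl1 (0.053), Cxcl12 (0.10) and Cxcl14 (0.12) changed sign. Leaving out 1 array put Ccl5 at -0.20 to 0.054, Cx3cl1 at -0.15 to 0.024, Cxcl1 at -0.049 to 0.15 and Cxcl12 at -0.25 to 0.022. Dim signals in normal skin limit the size of the Cxcl5 and Cxcl2 differences.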

Other observations

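Ligands whose probesets name several genes were outside the rule and were compared between tumours and normal skin by exact two-sided permutation tests, with Benjamini-Hochberg adjustment over the 4 sets. The 18 probesets naming Ccl21a, Ccl21b and Ccl21c, ligands that guide dendritic cells into lymphatic vessels, averaged 6.84 ± 0.28 in the tumours and 7.80 ± 0.60 in normal skin (SD, n = 5 and 6), with all tumours lower (difference -0.97, exact p = 0.0043, adjusted 0.0086). The 20 probesets naming Ccl19 and related loci averaged 6.32 ± 0.55 in the tumours and 7.21 ± 0.23 in normal skin (difference -0.89, exact p = 0.022, adjusted 0.029), and tumour 4, at 7.27, lay among the normal skins. The 9 probesets naming Ccl27a together with Gm13306 averaged 7.17 ± 0.23 in the tumours and 9.61 ± 0.40 in normal skin, with all tumours lower (difference -2.44, exact p = 0.0043, adjusted 0.0086), beside -0.88 for the 4 probesets naming Ccl27a alone. The 2 probesets naming Cxcl16 with Zmynd15 differed by 0.07 (exact p = 0.76, adjusted 0.76).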
